A study of Drosophila melanogaster with 18 samples.

Results

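Cytochrome P450 enzymes are haem proteins that insert an oxygen atom into fatty acids, hormones, plant toxins and insecticides, and in insects they take their electrons from a reductase or, in mitochondria, from ferredoxins. The Drosophila Cyp6 and Cyp9 families and many Cyp4 genes are known for detoxification in the midgut, fat body and Malpighian tubules, members of the mitochondrial Cyp12 family include insecticide-metabolising enzymes, and a few P450s have fixed tasks in hormone and hydrocarbon synthesis. The genes described here were the rows of the count table whose FlyBase symbol begins with Cyp and a digit, without Cyp18a1, the enzyme that inactivates ecdysteroids. The rule returned 85 of 17562 genes. Of these, Cyp1 and Cyp40 encode cyclophilins, which are prolyl isomerases and no P450s, so the results rest on the other 83 genes. They divided into 22 Cyp4, 24 Cyp6, 6 Cyp9, 7 Cyp12 and 24 other genes.

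RNA came from whole third-instar larvae of the WT, an isogenic w1118 strain, and of 5 deletion strains, which were made with CRISPR/Cas9 in a nanos-Cas9 line and then crossed to the WT over several generations. Each of the strains 21D.del, 82Eb.del, 95Ca.del, 95Cb.del and 95Cc.del lacks the promoter, transcript and terminator of a different U1 snRNA gene on both chromosomes, so it keeps the other genes for this splicing RNA, and each is a single line, so that a line effect and the deletion cannot be told apart. There were 3 libraries in each of the 6 groups, 18 in all. Nothing says whether replicates were separate batches of larvae, so p-values measure only the spread between these libraries. Each strain was compared with WT to ask which genes depend on that U1 gene.

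The libraries held 11919121 to 21776613 counts, and a count of 0 allowed up to 0.252 CPM, the count scaled to a common library total, in the shallowest library. Counts of the U1 genes themselves were too low to check the labels: in WT they ranged from 0 to 9 per library, and how many such short RNAs a library keeps depends on its preparation, on which the sources differ. The deleted gene had 0 counts in every library of 21D.del, 82Eb.del, 95Cb.del and 95Cc.del, and 0 to 5 in 95Ca.del. One library stood apart from the other 2 on the first principal component in each group: replicate 2 of WT, 21D.del and 82Eb.del, and replicate 1 of the 95C strains. The summed P450 level was highest in that same library in all 6 groups. It was 3208 RPKM, the CPM per kilobase of exonic length, in WT replicate 2 against 1849 and 1997 in the other WT libraries, and 2158 against 1185 and 1411 in 21D.del. Of the 80 members with counts in WT, 67 (83.8%) were highest in replicate 2, and the share lay between 65.4% and 78.5% in the strains. Cyp4d1 went the other way, with 94.1, 36.5 and 83.5 RPKM in WT replicates 1, 2 and 3 and 55.9, 5.96 and 72.8 in 21D.del. The part of these libraries in the results was not tested beyond the values without them.

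In WT, 6 members were above 100 RPKM, 33 lay from 10 to 100, 21 from 1 to 10 and 23 under 1. The 10 highest held 63.2% of the summed P450 level. They were Cyp6d5, Cyp9f2, Cyp6g1, whose raised expression gives resistance to DDT and neonicotinoids, Cyp9b2, Cyp4g1, which makes cuticular hydrocarbons in the oenocytes, Cyp12a4, Cyp4e2, Cyp28a5, Cyp6a14 and Cyp4d1. At the other end, Cyp9c1 and Cyp4d2 had no count in any library, Cyp4d14 had 2 counts in all, and 3 members had none in WT. After the filter on low counts, 72 members were tested against WT in all 5 strains, Cyp4e3 and Cyp4ae1 in some, and 9 in none.

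P450 transcripts were lower than in WT in every strain when summed. WT had a summed level of 2351 ± 746 RPKM (SD, n = 3), and the means of the strains ranged from 1411 ± 360 in 82Eb.del to 1725 ± 196 in 95Cc.del, which is 0.6 to 0.734 of WT. The lowest WT library had 1849 RPKM, above every library of 82Eb.del, 95Ca.del and 95Cb.del, while 21D.del reached 2158 and 95Cc.del 1950 and so overlapped with WT. The Cyp9 family stood lowest relative to WT, at 0.364 to 0.479 of its WT level in all 5 strains, with 134 to 304 RPKM per library against 340 to 645 in WT, and its ranges did not overlap with WT. The Cyp12 sum lay at 0.472 to 0.705 of WT, with 105 to 251 RPKM in the strain libraries against 213 to 405, and overlapped with WT in 21D.del, 95Cb.del and 95Cc.del. Cyp4 differed between strains, from 0.65 of WT in 82Eb.del to 1.03 in 95Cc.del. The sum of the 24 other genes lay at 0.776 to 1.05 of WT. In 95Cb.del, however, the median log2 fold change of those tested was -0.93, below the medians of Cyp4, Cyp6 and Cyp9 there. These sums are descriptions without a test, and a few abundant genes carry them.

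**Figure D1:**
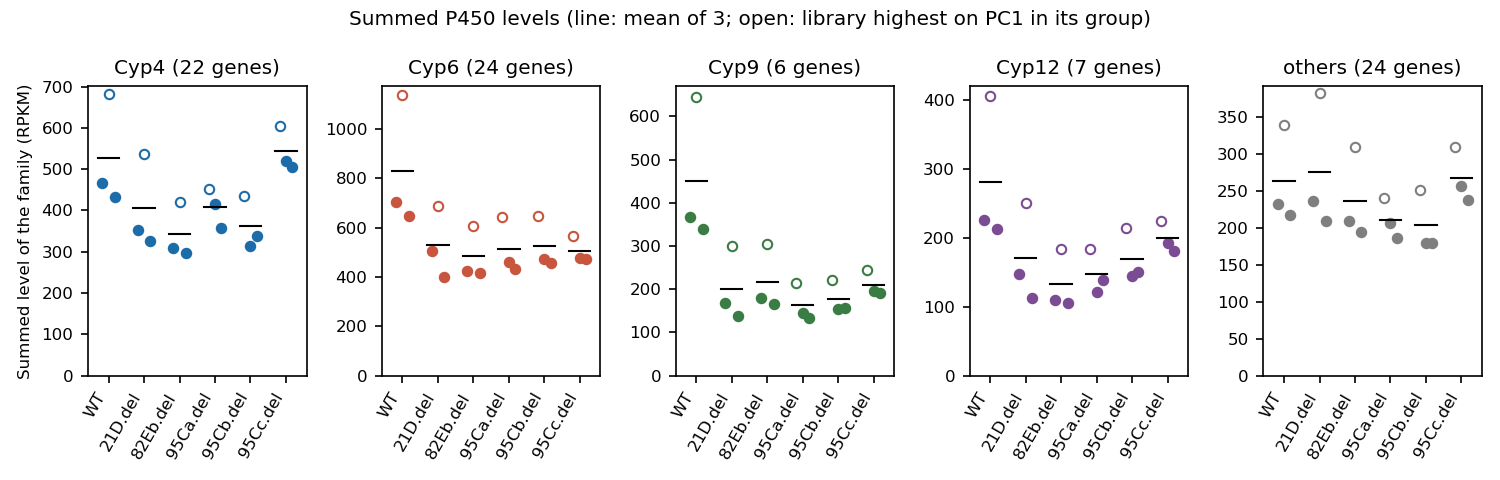
Summed level in RPKM of the members of each P450 family in each library, by group; points are libraries, lines are means of 3, and open points mark the library of each group that was highest on the first principal component. The Cyp9 sum was 134 to 304 RPKM in every strain library and 340 to 645 in WT, while the Cyp4 sum of 95Cc.del was 1.03 of that in WT.

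Gene by gene, a member was called when its log2 fold change exceeded 1 in size and its adjusted p fell below 0.05 in edgeR's quasi-likelihood test, adjusted over all genes tested. In 82Eb.del 23 of 74 members (31.1%) fell and 2 (2.7%) rose, where 3.8% of all genes tested were called lower and 0.733% higher. In 95Cb.del 26 of 74 (35.1%) fell and 2 rose, against 5.96% and 1.43% of all genes. In 95Ca.del 12 of 73 (16.4%) fell and 1 rose, against 2.51% and 0.241%. In 95Cc.del 11 of 73 (15.1%) fell and 6 (8.22%) rose, against 2.73% and 2.07%. Scaled by library totals in place of TMM, 12 fell and 0 rose in 82Eb.del, and 8 fell and 2 rose in 95Cc.del. Over all genes, 342 were then lower and 54 higher in 82Eb.del (472 and 91 with TMM), and 306 and 164 in 95Cc.del (340 and 258). In 21D.del 4 of 74 (5.41%) fell and none rose by edgeR, against 0.892% and 0.121% of all genes. At an unadjusted p under 0.05 there were 19 of 74 members in that strain, and 1076 of all 12443 genes tested. DESeq2 called no member higher in 21D.del, and 85 of all genes. The median log2 fold change of the members tested was -0.28 in 21D.del, -0.48 in 82Eb.del, -0.32 in 95Ca.del, -0.73 in 95Cb.del and 0.05 in 95Cc.del, where that of all genes tested lay between -0.02 and 0.03. In every strain, each member called had no overlap between its 3 libraries and those of WT. A call with 3 libraries a group largely implies this, so it adds no support, and the share over all genes called was not computed. The summed level of 9 midgut markers was also below WT in every strain library (190 to 2475 CPM against 3738 to 7401). Within every group, however, it was lowest in the library with the highest P450 sum. In WT it was 3738 CPM in replicate 2, against 7401 and 7383 in replicates 1 and 3. The part of the midgut in these counts was not tested.

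Single libraries moved these counts, and the counts over all genes too. Over all genes, 111 were lower and 15 higher in 21D.del. These became 0 and 0 without its replicate 1, and 173 and 27 without its replicate 2. Without the strain's own replicate 3, genes called lower went from 472 to 220 in 82Eb.del and from 313 to 131 in 95Ca.del. They went from 745 to 267 in 95Cb.del and from 340 to 199 in 95Cc.del. The 4 P450 calls of 21D.del became 0 without its replicate 1, 7 without its replicate 2, and 2 without its replicate 3 or without any single WT library. In 82Eb.del the 25 calls became 10 and 12 without WT replicates 1 and 3, and 11 and 9 without its own replicates 1 and 3. The 13 calls of 95Ca.del became 7 without WT replicate 1 or 3 and 8, 8 and 4 without its own replicates 1, 2 and 3. In 95Cb.del the 28 calls became 17 and 14 without its replicates 2 and 3. The 17 calls of 95Cc.del became 8 and 11 without WT replicates 1 and 3 and 7, 5 and 7 without its own replicates 1, 2 and 3. Without replicate 2 of both WT and 21D.del, 15 members were called lower in 21D.del, as were 392 of all genes. Calls that held in all 6 fits with a single library left out numbered 0 of 4 in 21D.del. In 82Eb.del they were 9 of 25, namely Cyp6w1, Cyp6a14, Cyp12d1-p, Cyp316a1, Cyp4d8, Cyp12c1, Cyp6d5, Cyp311a1 and Cyp6t1. In 95Ca.del they were 4 of 13, Cyp6w1, Cyp6a14, Cyp4d8 and Cyp6a18. In 95Cb.del they were 14 of 28, namely Cyp28d2, Cyp6w1, Cyp6a2, Cyp6a14, Cyp6a13, Cyp4p3, Cyp6a23, Cyp316a1, Cyp4d8, Cyp9f2, Cyp12a5, Cyp6a18, Cyp311a1 and Cyp6t1. In 95Cc.del they were 5 of 17, Cyp6a14, Cyp304a1, Cyp6d5, Cyp6a18 and Cyp311a1. Every other call named here was lost without at least 1 library. Same-numbered libraries of WT and 21D.del deviated together, and with the replicate number as a block 13 members were called lower and 1 higher in 21D.del. Over all genes, 372 were then lower and 88 higher. The genes this added were Cyp6a2, Cyp311a1, Cyp4ac3, Cyp28d2, Cyp9f2, Cyp6w1, Cyp304a1, Cyp6a9 and Cyp9b2, all lower, and Cyp28d1, higher (log2 fold change 1.03, adjusted p = 0.0103 in edgeR with the block). In 82Eb.del the block added Cyp12e1 and Cyp313a3, lower, and Cyp305a1, higher (1.85, adjusted p = 0.0308), to the 25. Over all genes, 876 were then lower and 252 higher in 82Eb.del.

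**Figure D2:**
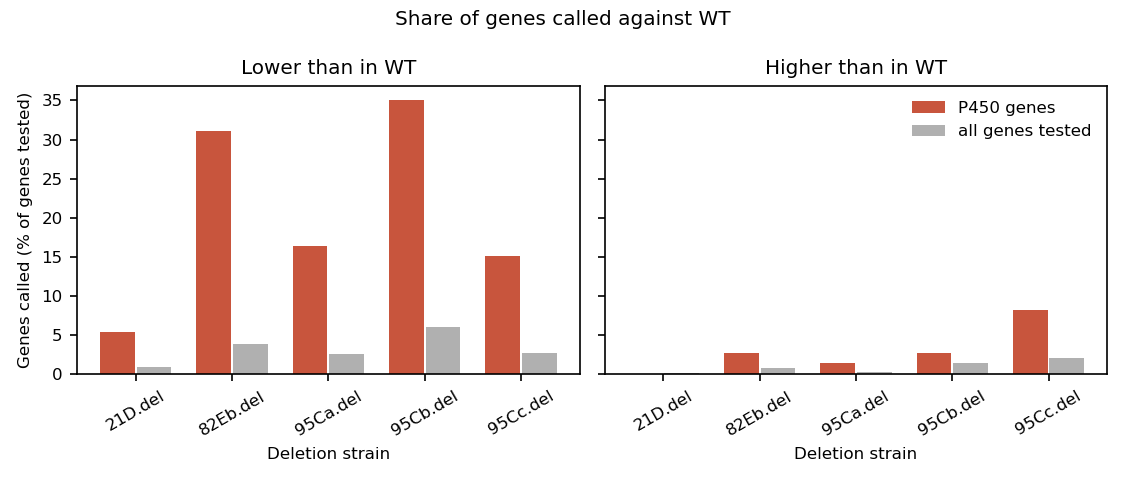
Percent of the genes tested that were called lower (left) or higher (right) than WT in each deletion strain, for P450 genes and for all genes tested. P450 genes were called lower at 31.1% in 82Eb.del and 35.1% in 95Cb.del, where all genes were at 3.8% and 5.96%.

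Of the 83 genes, 38 were called in at least 1 strain. There were 31 lower in at least 1 strain and 8 higher, and Cyp4aa1 was in both groups. The 5 comparisons share the WT libraries. The shares of all genes called in at least 1 strain or in all 5 were not computed, so these counts are descriptions only. By family, the members called lower in 82Eb.del were 5 of 19 Cyp4, 9 of 22 Cyp6, 1 of 5 Cyp9, 3 of 6 Cyp12 and 5 of 22 other genes. In 95Cb.del they were 6, 9, 1, 3 and 7 of the same numbers. The Cyp12 family had the lowest median log2 fold change of the 5 family groups in every strain, from -0.52 in 95Cc.del to -1.18 in 82Eb.del. All 6 Cyp12 genes tested were below WT in 82Eb.del, 95Ca.del and 95Cb.del, of which 3, 2 and 3 were called. The Cyp4 median ranged from -0.71 in 95Cb.del to 0.26 in 95Cc.del.

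**Figure D3:**
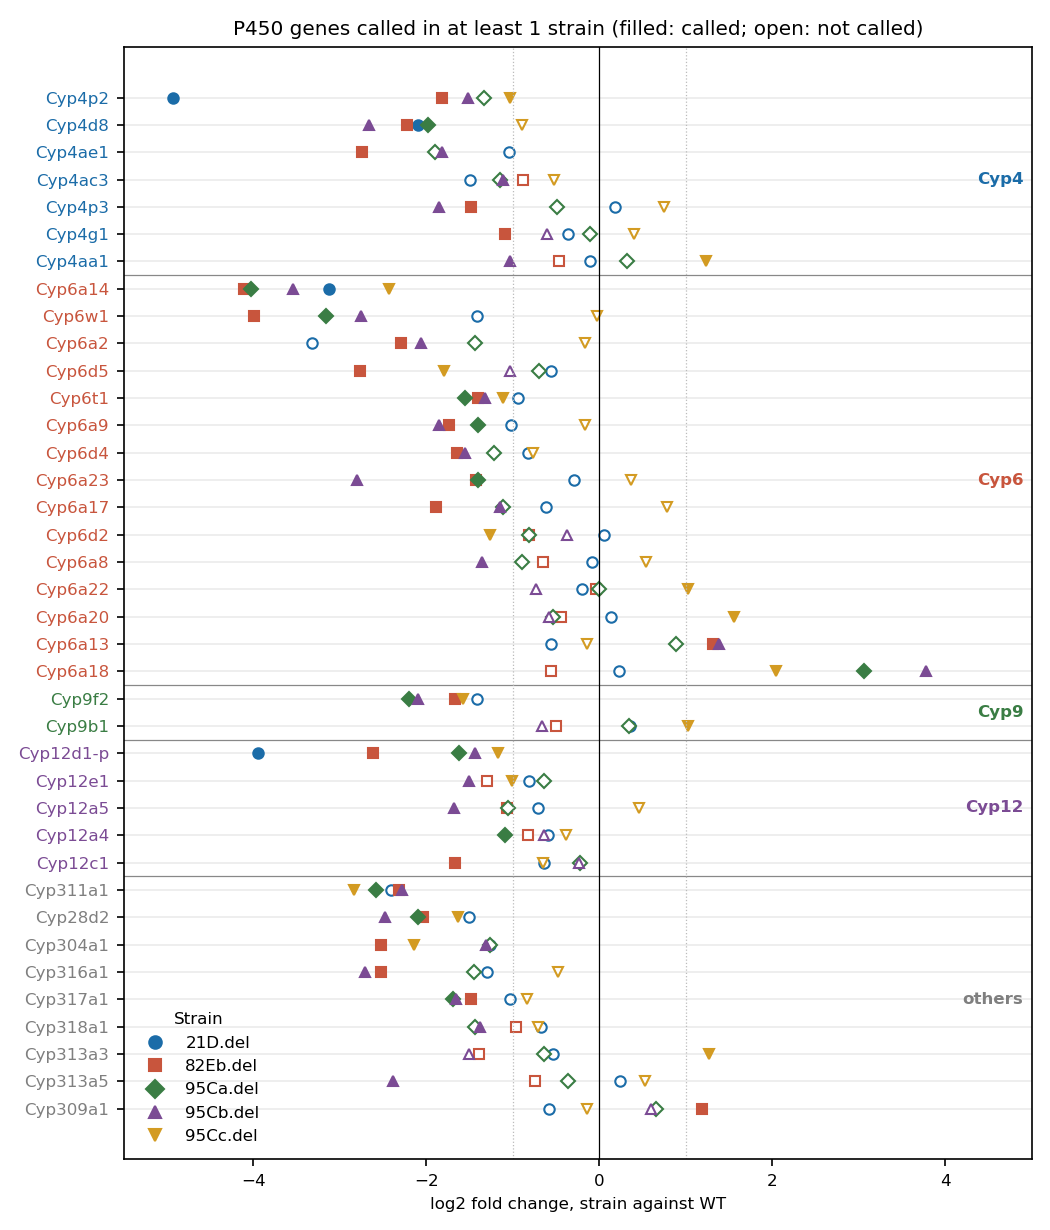
The log2 fold change against WT of the 38 P450 genes called in at least 1 strain, grouped by family; each symbol is a strain, filled where called and open where not. Cyp6a14 is filled on the left in all 5 strains and Cyp6a18 on the right in the 95C strains.

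Cyp6a14 and Cyp12d1-p fell in all 5 strains. Cyp6a14 (FBgn0033302, 2R, dm6 positions 8564187 to 8567202) had 68.8, 96.3 and 66.6 RPKM in the WT libraries. It had 7.29, 10.8 and 7.11 in 21D.del, 4.05, 5.26 and 3.71 in 82Eb.del and 5.16, 4.36 and 3.81 in 95Ca.del. In 95Cb.del it had 7.64, 6.43 and 6.36, and in 95Cc.del 15.5, 13.0 and 13.2. No strain library came near the lowest WT library, and 95Cc.del was the highest of the strains. The fold was 17.3 lower in 82Eb.del (log2 fold change -4.11 ± 0.14, SE, adjusted p = 0.000134 in edgeR), 16.3 in 95Ca.del, 11.7 in 95Cb.del, 8.77 in 21D.del and 5.38 in 95Cc.del (log2 fold change -2.43 ± 0.12, adjusted p = 0.000188 in edgeR). These calls held without each single library, except in 21D.del without its replicate 1 (adjusted p = 0.0641 in edgeR).

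Cyp12d1-p, a mitochondrial P450 that metabolises DDT, had 5.73, 11.5 and 5.54 RPKM in WT and 0.298, 0.821 and 0.303 in 21D.del. It had 0.731 to 1.69 RPKM in the 82Eb.del libraries, 2.78, 1.94 and 2.12 in 95Ca.del, 3.67, 2.23 and 2.62 in 95Cb.del and 3.8, 3.14 and 2.66 in 95Cc.del. All 15 strain libraries were below the 3 of WT, and the strains followed the order 21D.del, 82Eb.del, then the 95C strains. The log2 fold change was -3.95 ± 0.46 in 21D.del (adjusted p = 0.0169), -2.62 ± 0.32 in 82Eb.del (adjusted p = 0.00674) and -1.62, -1.44 and -1.17 in 95Ca.del, 95Cb.del and 95Cc.del (edgeR). Only the call in 82Eb.del held without each single library, and the one in 95Cc.del held in none of the 6 such fits (adjusted p up to 0.153). Scaled by library totals, the calls in the 3 95C strains were lost. Its tandem copy Cyp12d1-d, 22 counts in WT, had 0 in 82Eb.del (at least 7.69-fold lower, against a floor of 3 counts over the group) and 1 to 4 counts in the other strains. The copies are nearly identical, and how the authors counted reads that match both is not given in the sources used here, so the split between them is uncertain.

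**Figure D4:**
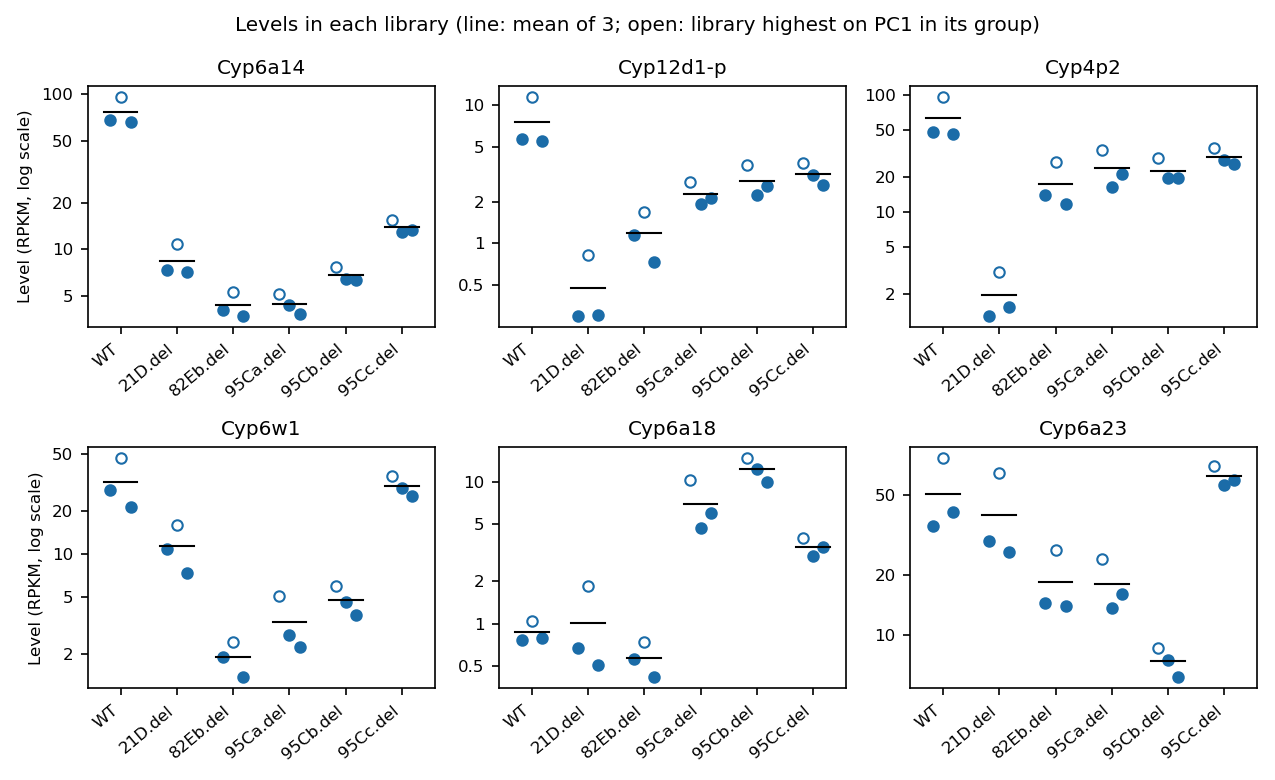
Level in RPKM (log scale) of 6 P450 genes in every library, by group; lines are means of 3 and open points mark the library highest on the first principal component in its group. Cyp6a14 lies at 3.71 to 15.5 RPKM in the strains and at 66.6 to 96.3 in WT, Cyp4p2 at 1.31 to 3.07 in 21D.del, and Cyp6a18 at 3.0 to 14.6 in the 95C strains against 0.771 to 1.05 in WT.

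The next 6 genes fell in 4 strains each. Cyp9f2 had 192, 367 and 195 RPKM in WT and 36.7 to 133 in the strain libraries, with no overlap. Its log2 fold change was -1.67, -2.2, -2.1 and -1.58 in 82Eb.del, 95Ca.del, 95Cb.del and 95Cc.del, where it was called, and -1.42 in 21D.del (adjusted p = 0.143 in edgeR, and 0.00553 with the block). Its neighbour Cyp9f3 was called in no strain. Cyp311a1, which acts in lipid handling of the anterior midgut, had 23.7, 21.4 and 21.5 RPKM in WT and 1.55 to 5.55 in the strain libraries. In 95Cc.del it fell further than any other member (log2 fold change -2.84 ± 0.23, adjusted p = 0.00116 in edgeR). In 21D.del it was at -2.41 ± 0.53 (adjusted p = 0.145 in edgeR, and 0.0105 with the block).

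Cyp4d8 had 17.0, 26.6 and 14.3 RPKM in WT, 2.11 to 5.59 in the libraries of 21D.del, 82Eb.del, 95Ca.del and 95Cb.del, and 12.4, 9.1 and 8.68 in 95Cc.del, all below WT. It fell in 21D.del, 82Eb.del, 95Ca.del and 95Cb.del, by 2.1, 2.23, 1.98 and 2.67 on the log2 scale, and lay at -0.89 in 95Cc.del (adjusted p = 0.0374 in edgeR, short of the fold threshold). Its call in 21D.del held only without replicate 2 of 21D.del (adjusted p up to 0.148 otherwise), and the other 3 held without each single library. Cyp28d2 had 6.07, 11.8 and 5.77 RPKM in WT and 1.08 to 4.36 in the strain libraries, without overlap. It fell in 82Eb.del and the 95C strains, from -2.48 in 95Cb.del to -1.63 in 95Cc.del. It lies beside Cyp28d1 on 2L, which was called in no strain with all libraries and no block and was at 0.68 in 82Eb.del and 95Ca.del. Cyp6t1, with no intron in its longest spliced transcript, had 18.9, 22.9 and 15.3 RPKM in WT and 4.52 to 10.2 in the strain libraries. It fell in the same 4 strains by 1.11 to 1.55.

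Cyp4p2 showed the largest single change of any member. It had 48.5, 95.9 and 46.5 RPKM in WT and 1.31, 3.07 and 1.56 in 21D.del, a 30.6-fold difference (log2 fold change -4.93 ± 0.39, adjusted p = 0.00572 in edgeR). In the other strains its libraries had 11.8 to 34.9 RPKM, all below WT, and it was called in 82Eb.del, 95Cb.del and 95Cc.del (-1.82, -1.52 and -1.04) but not in 95Ca.del (-1.33, adjusted p = 0.0583). Of the 6 libraries in the 21D.del comparison, its replicate 1 was the one without which the call was lost (adjusted p = 0.0641 in edgeR), whereas in 95Cc.del the call was lost whichever library was left out (adjusted p up to 0.175). The calls in 82Eb.del (adjusted p up to 0.124 without WT replicate 1 or 3 or its own replicate 1 or 3) and 95Cb.del (up to 0.0922 without its replicate 2 or 3) were also lost. Cyp4p2 was 3.51 lower on the log2 scale in 21D.del than the mean of the other 4 strains (SE 0.3, adjusted p = 4.08e-06 in edgeR). The genes next to it, Cyp4p1 and Cyp4p3, were at 0.69 and 0.18 in 21D.del and were not called there. All 3 lie opposite to hig on 2R, and whether reads were counted by strand is not given in the sources used here.

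Cyp6w1 separated 95Cc.del from the other strains. WT had 27.9, 46.2 and 21.0 RPKM, and 95Cc.del had 34.6, 28.9 and 25.3, within the WT range. By contrast 82Eb.del had 1.91, 2.43 and 1.37, 95Ca.del 5.07, 2.71 and 2.24, and 95Cb.del 5.99, 4.62 and 3.72, each below every WT library. In 21D.del it had 10.7, 15.9 and 7.33, also below WT (log2 fold change -1.42, adjusted p = 0.133 in edgeR, and 0.00318 with the block). The log2 fold change was -3.99 ± 0.28 in 82Eb.del (adjusted p = 0.000667), -3.16 ± 0.33 in 95Ca.del (adjusted p = 0.00335), -2.76 ± 0.26 in 95Cb.del (adjusted p = 0.00122) and -0.03 ± 0.2 in 95Cc.del (adjusted p = 0.964, edgeR). All 3 calls held without each single library. Cyp6a2, which metabolises DDT, was similar: 13.4, 9.57 and 14.2 RPKM in WT, 9.88, 11.7 and 11.6 in 95Cc.del, and 0.484 to 4.64 in the other strains. It was called lower in 82Eb.del and 95Cb.del, and in 21D.del it was at -3.32 ± 0.57 (adjusted p = 0.0663 in edgeR, and 0.00239 with the block).

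Cyp6d5 and Cyp9f2 had the highest mean levels in WT, 254 ± 112 and 252 ± 100 RPKM (SD, n = 3), which do not differ beyond their spread. Cyp6d5 had 197, 383 and 182 RPKM in the WT libraries. In 82Eb.del it had 30.4, 48.2 and 28.6, and in 95Cc.del 76.0, 67.5 and 63.6, both without overlap with WT. It fell in these 2 strains (log2 fold change -2.77 ± 0.25 and -1.8 ± 0.21, adjusted p = 0.00206 and 0.00437 in edgeR), and both calls held without each single library. In 21D.del and 95Ca.del its range overlapped with WT. Cyp6d5 is one of 36 members that overlap a gene on the opposite strand, here rdx. Cyp304a1 had 40.8, 30.3 and 40.3 RPKM in WT, 7.11, 4.82 and 7.0 in 82Eb.del, 16.7, 12.1 and 18.5 in 95Cb.del and 8.52, 7.74 and 9.02 in 95Cc.del. It fell in these strains (-2.52, -1.31 and -2.14), and the call in 95Cc.del held without each single library, while that in 82Eb.del was lost without its replicate 3 (adjusted p = 0.0529). Cyp12c1 was called in 82Eb.del alone, with 10.6, 16.9 and 9.91 RPKM against 34.9, 55.5 and 32.4 in WT (log2 fold change -1.67, adjusted p = 0.00527 in edgeR, held without each single library). It was also lower there than in the mean of the other 4 strains (log2 difference -1.25).

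A further group was called lower in 82Eb.del and 95Cb.del. Cyp316a1 had 2.02, 3.75 and 2.17 RPKM in WT, 0.372, 0.578 and 0.375 in 82Eb.del and 0.307, 0.587 and 0.301 in 95Cb.del. It fell in both (log2 fold change -2.52 ± 0.27 and -2.71 ± 0.37, adjusted p = 0.00441 and 0.0063 in edgeR), and both calls held without each single library, while in 95Cc.del it reached 2.34 and overlapped with WT. Cyp4p3, Cyp6d4 and Cyp12a5 fell in the same 2 strains, by 1.48 and 1.85, by 1.65 and 1.55, and by 1.07 and 1.68 on the log2 scale. Cyp12a5 had 27.4 to 35.9 RPKM in 95Cc.del, where WT had 17.1 to 33.1 and 95Cb.del 7.01 to 7.73. Cyp4ae1 was at 0.027 to 0.414 RPKM, and its calls in these strains were lost whichever library was left out (adjusted p up to 0.158 and 0.171).

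The remaining calls were in 1 or 2 strains. Cyp12e1 fell in 95Cb.del (-1.51) and 95Cc.del (-1.01), and Cyp6d2 in 95Cc.del (-1.27 ± 0.16, adjusted p = 0.00647 in edgeR), with 4.76 to 5.27 RPKM against 9.87 to 17.5 in WT. In 95Cb.del Cyp313a5 (-2.39), Cyp318a1 (-1.38) and Cyp4ac3 (-1.11) fell. Cyp313a3, a neighbour of Cyp313a5 on 3R, rose in 95Cc.del, with 2.32, 2.39 and 2.29 RPKM against 0.904, 0.944 and 1.07 in WT (1.27 ± 0.21, adjusted p = 0.0163 in edgeR). Cyp4aa1 had 1.74, 2.51 and 1.41 RPKM in WT, fell to 1.01, 0.905 and 0.899 in 95Cb.del (-1.04) and rose to 5.13, 3.51 and 4.19 in 95Cc.del (1.23). Its call in 95Cb.del was lost whichever library was left out (adjusted p up to 0.2 in edgeR). Its call in 95Cc.del held only without WT replicate 2 (adjusted p up to 0.0963 otherwise). The calls of Cyp4ac3 in 95Cb.del and Cyp12e1 in 95Cc.del were also lost in each such fit (adjusted p up to 0.188 and 0.226).

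Most other abundant members were not called. Cyp6g1 had 196, 247 and 163 RPKM in WT and 114 to 368 in the strains. Its log2 fold change ranged from -0.62 in 95Cc.del (adjusted p = 0.0457, below the fold threshold) to 0.6 in 82Eb.del. Cyp4g1 was called in 82Eb.del (-1.09, adjusted p = 0.0364 in edgeR), a call that held only without replicate 2 of 82Eb.del. Cyp12a4 was called in 95Ca.del alone (-1.09, adjusted p = 0.0338), a call that no fit with a library left out kept. Cyp4e2, Cyp28a5 and Cyp4d1 were called in none with all libraries, and Cyp28a5 was called higher in 95Cc.del without replicate 2 of both groups (1.1, adjusted p = 0.0108 in edgeR). Cyp9b2, not called with all libraries, was lower in 21D.del with the block (-1.05, adjusted p = 0.0127) and without replicate 2 of both groups (-1.1, adjusted p = 0.00535 in edgeR). Cyp1 and Cyp40, the cyclophilins, were at -0.31 to 0.25 and were called in none.

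Fewer members rose. Cyp6a18 (3R, dm6 positions 27478675 to 27482904) had 0.771, 1.05 and 0.786 RPKM in WT. It had 10.3, 4.72 and 6.03 in 95Ca.del, 14.6, 12.3 and 9.96 in 95Cb.del and 3.99, 3.0 and 3.47 in 95Cc.del, all above WT. In 21D.del and 82Eb.del it was at 0.419 to 1.85. The log2 fold change was 3.06 ± 0.26 in 95Ca.del (adjusted p = 0.00129), 3.77 ± 0.18 in 95Cb.del (adjusted p = 0.00018) and 2.04 ± 0.16 in 95Cc.del (adjusted p = 0.00101, edgeR), and all 3 calls held without each single library. Against the mean of the other 4 strains, Cyp6a18 was lower in 82Eb.del by 2.85 and in 21D.del by 1.86 and higher in 95Cb.del (2.61 ± 0.21, adjusted p = 2.17e-06 in edgeR) and 95Ca.del (1.69).

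Cyp6a13, with no intron in its longest spliced transcript, rose in 82Eb.del and 95Cb.del. WT had 8.22, 13.9 and 9.19 RPKM, 82Eb.del 21.0, 31.9 and 22.2, and 95Cb.del 35.3, 24.8 and 23.9, without overlap. The log2 fold change was 1.31 ± 0.17 (adjusted p = 0.00899) and 1.38 ± 0.19 (adjusted p = 0.00709, edgeR), and the call in 82Eb.del was lost without WT replicate 1, WT replicate 3 or its own replicate 3 (adjusted p up to 0.0605). Cyp6a13 and Cyp6a14 lie within 7.96 kb on 2R with the pseudogene Cyp6a15Psi between them, so that neighbours of one family went in opposite directions in these 2 strains. Cyp309a1 rose in 82Eb.del (1.19, adjusted p = 0.0158), a call lost without WT replicate 1 or 3 or its own replicate 1 or 3 (adjusted p up to 0.0974).

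The largest genomic cluster of P450 genes, 8 members within 31.7 kb on 2R, also varied by strain. It holds Cyp6a22, Cyp6a17, which sets temperature preference in adult flies, Cyp6a23, Cyp6a19, Cyp6a9, Cyp6a20, which bears on male aggression, Cyp6a8, a fatty acid hydroxylase, and Cyp317a1. Of the 7 tested, 4 fell in 82Eb.del, 3 in 95Ca.del and 5 in 95Cb.del, none was called in 21D.del, and in 95Cc.del none fell and 2 rose. Median log2 fold changes in the cluster were -0.29, -1.43, -1.12, -1.36 and 0.54 in 21D.del, 82Eb.del, 95Ca.del, 95Cb.del and 95Cc.del. Cyp6a23 had 35.2, 76.6 and 41.5 RPKM in WT, 8.64, 7.47 and 6.13 in 95Cb.del and 70.5, 56.5 and 59.8 in 95Cc.del. It fell in 95Cb.del (-2.8 ± 0.25, adjusted p = 0.000972 in edgeR), a call that held without each single library, and overlapped with WT in 95Cc.del (0.36, adjusted p = 0.395). Cyp6a9 and Cyp317a1 fell in 82Eb.del, 95Ca.del and 95Cb.del, Cyp6a17 in 82Eb.del and 95Cb.del, and Cyp6a8 in 95Cb.del. Of the lower calls in the cluster, only that of Cyp6a23 in 95Cb.del held without each single library. Those of Cyp6a9 in 95Ca.del and Cyp6a17 in 95Cb.del were lost whichever library was left out (adjusted p up to 0.253 and 0.203 in edgeR). Cyp6a20 and Cyp6a22 rose in 95Cc.del (1.55 and 1.02). Both calls were lost without WT replicate 1 and without replicate 1 or 2 of 95Cc.del (adjusted p up to 0.137 and 0.0562), and that of Cyp6a20 also without WT replicate 3 or replicate 3 of 95Cc.del.

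The strain 95Cc.del was also compared directly with the other 4, in one fit of all 18 libraries. It had 25 of 75 members higher (33.3%) and 0 lower, where 7.38% of all genes tested were higher and 2.55% lower. At an unadjusted p under 0.05 there were 44 members in both directions, for which the share over all genes was not computed, and DESeq2 was not run here. The median over the members was 0.58, and that of all genes 0.0. The calls numbered 17, 27 and 17, all higher, without replicate 1, 2 or 3 of every group. Of all genes, 424, 1197 and 372 were then called higher. Cyp6w1 differed most (70.8 against 12.8 CPM, log2 difference 2.79 ± 0.18, adjusted p = 9.42e-08 in edgeR). It was followed by Cyp313a3 (2.28), Cyp6a2 (2.09), Cyp6a17 (1.96), Cyp6a20 (1.89), Cyp4e3 (1.87), Cyp6a23 (1.83), Cyp4p3 (1.65) and Cyp12a5 (1.58), for each of which the call held in all 3 of these fits. Cyp6a14 was 1.27 ± 0.1 higher in 95Cc.del than in the other strains (41.2 against 17.8 CPM), although below WT in all of them. Against WT, the genes called higher in 95Cc.del were Cyp6a18, Cyp6a20, Cyp313a3, Cyp4aa1, Cyp9b1 and Cyp6a22.

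**Figure D5:**
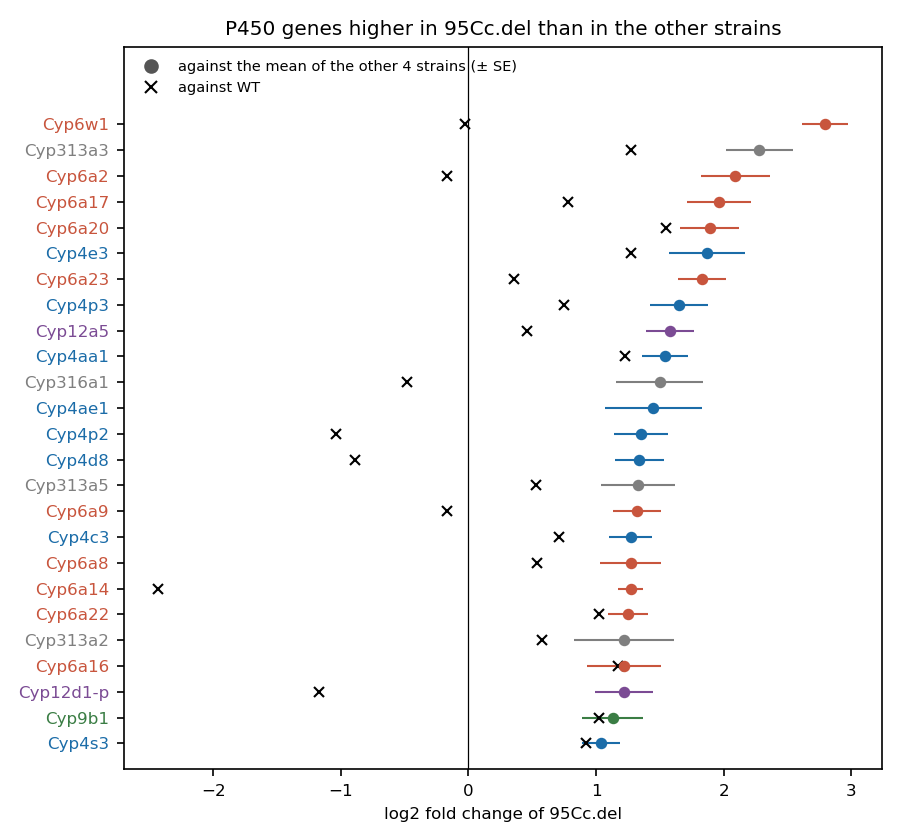
The 25 P450 genes called higher in 95Cc.del than in the mean of the other 4 strains, in log2 fold change; circles with bars give that difference and its SE, crosses the change of 95Cc.del against WT (Cyp4ae1 was not tested there). The differences run from 1.04 for Cyp4s3 to 2.79 for Cyp6w1, while the crosses lie on both sides of 0.

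The other strains had fewer members that differed from the mean of the remaining 4. In 21D.del 6 were lower and 3 higher of 75, where 0.512% and 1.53% of all genes were. In 82Eb.del 6 were lower and 2 higher, against 1.21% and 0.344%. In 95Cb.del 6 were lower and 2 higher, against 1.79% and 1.02%, and in 95Ca.del 2 were lower and 1 higher, against 0.305% and 0.176%. Scaled by library totals, 6 were lower and 0 higher in 21D.del, and 0 lower and 1 higher in 95Ca.del. Over all genes, 64 were then lower and 142 higher in 21D.del, and 18 and 17 in 95Ca.del. Without replicate 1, 2 or 3 of every group the calls became 2, 6 and 2 in 21D.del, 1, 8 and 2 in 82Eb.del, 0, 2 and 0 in 95Ca.del and 2, 9 and 2 in 95Cb.del. Calls over all genes fell too without replicate 1 or 3, as from 67 lower to 12 and 9 in 21D.del.

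Among members with no annotated intron, 3 of 6 tested fell in 82Eb.del, 2 in 95Ca.del, 2 in 95Cb.del, 1 in 95Cc.del and 0 in 21D.del. With 1 or 2 introns, 8 of 22 fell in 82Eb.del, 4 in 95Ca.del, 8 in 95Cb.del, 1 in 95Cc.del and 1 in 21D.del. With 3 or more introns, 12 of 46 fell in 82Eb.del, 6 of 45 in 95Ca.del, 16 of 46 in 95Cb.del, 9 of 45 in 95Cc.del and 3 of 46 in 21D.del. P450 genes with and without introns in that transcript were among those that fell, and whether the shares differ was not tested. Of all genes with 0 introns by the same count, 4.1% were lower in 82Eb.del and 7.06% in 95Cb.del. Of those with 1 or 2 introns 4.76% and 7.17% were, and of those with 3 or more 2.97% and 4.63%. In 95Ca.del these 3 shares were 2.19%, 3.28% and 2.05%. They were 3.24%, 3.27% and 2.12% in 95Cc.del and 0.888%, 1.12% and 0.725% in 21D.del. The members lie on 2L (14), 2R (34), 3L (6), 3R (16) and X (13), and in 82Eb.del and 95Cb.del members called lower were found on each of these arms.

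The partners that pass electrons to P450s were not called. Cpr, the reductase of microsomal P450s, had a mean of 160 CPM in WT and of 115 to 175 in the strains, and 0 of 6 redox partners (among them Cyt-b5 and the mitochondrial dare) were called in any strain by edgeR or DESeq2, with 0 or 1 at an unadjusted p under 0.05 in each strain. None of 11 regulators linked to P450 induction was called either, among them cnc, Keap1, Hr96, ss and tgo, by edgeR or DESeq2, with 1 to 3 at an unadjusted p under 0.05. Their median log2 fold changes were -0.39 to 0.11 for the partners and -0.29 to 0.06 for the regulators. Hr38 was at 0.87 in 95Cc.del and -0.98 in 95Cb.del (adjusted p = 0.00967 and 0.0259 in edgeR), both short of the fold threshold. Of the ecdysteroid-synthesis P450s that carry other names, dib, which hydroxylates the hormone precursor, rose in 82Eb.del (1.86) and 95Cb.del (2.02) by edgeR, and was at 1.25 in 95Ca.del (adjusted p = 0.0763 in edgeR), where DESeq2 also called it. None of the others tested was called by either tool, and spo passed the filter in 21D.del alone.

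Markers of some tissues moved with the groups. Of the 9 midgut markers, 2 fell in 21D.del, 3 in 82Eb.del, 95Ca.del and 95Cb.del and 4 in 95Cc.del, with medians of -1.6, -1.95, -2.4, -1.64 and -1.88, and none was at 0 in all libraries. LManVI and Mal-A1 fell in all 5 strains, and DESeq2 called 3, 5, 6, 6 and 7 of the 9. Mal-B1 went the other way in 21D.del (1.47) and 82Eb.del (0.54), not called. Jon65Aiii, the most abundant of the 9 in WT, and lab were called in no strain by edgeR. In 95Cc.del the sum of the 9 markers was 1011 to 1331 CPM, within the range of the other strains. Fat body markers (7) were at 76521 to 111560 CPM in WT and 76409 to 119704 in the strains, with none called by edgeR, 1 each in 82Eb.del and 95Cb.del by DESeq2, and 0 to 3 at an unadjusted p under 0.05. Malpighian tubule markers (7) were at 238 to 320 CPM in WT, at 163 to 229 in 82Eb.del and 181 to 215 in 95Cb.del, below every WT library, and at 196 to 327 in the other strains. Uro fell in 82Eb.del and Oatp58Db in 21D.del. Oenocyte markers (4 matched) were at 732 to 1387 in WT and 492 to 1995 in the strains, with none called by edgeR or DESeq2 and 0 to 2 at an unadjusted p under 0.05. Body muscle markers (6) were at 42325 to 50685 in 95Cc.del against 13198 to 32136 in all other libraries, and 3 rose in that strain, while wupA fell in 95Cb.del. Salivary gland markers (6) were at 11347 to 19632 CPM in WT, at 21629 to 30749 in 82Eb.del and 24193 to 26068 in 95Cb.del, above every WT library, and at 9819 to 13069 in 95Cc.del, 7341 to 28514 in 21D.del and 17360 to 27625 in 95Ca.del. Of them, Sgs4 rose in 82Eb.del and Sgs8 in 95Cb.del by edgeR, and DESeq2 called 2 in each of these strains and none in the others. The part of tissue make-up in the P450 results was not tested, and in whole larvae fewer cells of a type and less RNA per cell cannot be told apart.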

How the data were processed

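Total RNA of whole larvae, described by the labels as strand-specific with rRNA removed but by a note of the study as mRNA-seq, was sequenced as paired-end Illumina reads. The authors used Trimmomatic 0.39 and cutadapt 1.15 (submitters' notes), HISAT2 on dm6, and featureCounts for the deposited table, whose values are raw counts of 17562 genes without normalization. How featureCounts treated strand and reads with several matches, and its annotation release, are not given in the sources used here, which matters for the 43 members that overlap another gene. Of the 17562 genes, 17479 had a symbol and 17421 the same span in the Ensembl gene annotation compared here, as did 82 of the 83 members, and introns were taken from its transcript with the longest spliced length.

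For each strain and WT a separate model was fitted in edgeR 4.0.16 under R 4.3.3, with filterByExpr (minimum count 10, minimum total 15), TMM, glmQLFit and glmQLFTest, with Benjamini-Hochberg adjustment over all genes tested. Genes were called at adjusted p under 0.05 with a change of over 1 on the log2 scale in either direction. SE is the log2 fold change over the square root of F. Each strain was also compared with the mean of the other 4 in a fit of all 18 libraries (13096 genes). DESeq2 1.42.0, the tool of the authors, was an alternative, as were other normalizations, no filter, one fit of all groups, the replicate block and leaving out libraries. CPM and RPKM divide by library totals and exonic length. The scripts were tested on simulated data. Principal components used log2 CPM with a prior count of 2.

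Correlations of same-numbered libraries' deviations from their group means with those of WT (replicates 1, 2 and 3) were 0.65, 0.84 and 0.69 in 21D.del and 0.65, 0.84 and 0.65 in 82Eb.del, so the replicate numbers were taken as pairs there from this check alone, which an outlying library in both groups could also give. In the 95C strains 2 of 3 values were negative, so these were not taken as paired. Counts of replicates within each group differed by more than sampling noise, so no library was a duplicate of another in its group. Libraries of different groups were not compared in this way. Floors cover counting error only.

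The members, gene lists and alternatives were chosen with earlier results of these data known. Genes named are those called in most strains (at most 30), the 10 highest in WT, those called in 3 or more strains without replicate 2, the redox, regulator and ecdysteroid lists, cluster neighbours and genes without counts. Other genes named were chosen after their values were seen. Protein and promoter sequences were not used here.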

Additional observations from a re-analysis of the deposited data

Results flagged for a closer look

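The differences listed here were called between one strain and the mean of the other 4 strains by edgeR's quasi-likelihood test in a fit of all 18 libraries, and each value is a log2 difference. The contrasts use the same strain libraries. The calls lost without replicate 1, without replicate 2 and also without replicate 3 of every group were those of Cyp309a1, Cyp6w1, Cyp6a23 and Cyp6d5 in 21D.del, Cyp309a1 in 82Eb.del, Cyp4e3 and Cyp6w1 in 95Ca.del, and Cyp6a8 and Cyp12a5 in 95Cb.del.

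Cyp4p2 and Cyp12d1-p, both lower in every strain than in WT, were lower still in 21D.del, by -3.51 and -2.24. Also below the other strains in 21D.del were Cyp6a18 (-1.86), Cyp6a2 (-1.82), Cyp6a13 (-1.42) and Cyp309a1 (-1.16). Above them were Cyp6w1 (1.06), Cyp6a23 (1.03) and Cyp6d5 (1.01). In 82Eb.del Cyp6a18 (-2.85), Cyp6w1 (-2.17), Cyp6d5 (-1.76), Cyp6a17 (-1.38), Cyp12c1 (-1.25) and Cyp4p3 (-1.14) were lower, and Cyp9f3 (1.15) and Cyp309a1 (1.04) were higher.

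In 95Ca.del Cyp6a18 was higher (1.69), and Cyp4e3 (-2.1) and Cyp6w1 (-1.12) were lower. In 95Cb.del Cyp6a18 (2.61) and Cyp6a13 (1.05) were higher. Lower there were Cyp313a5 (-2.27), Cyp6a23 (-2.07), Cyp4p3 (-1.56), Cyp4aa1 (-1.24), Cyp6a8 (-1.05) and Cyp12a5 (-1.04).

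All 25 differences of 95Cc.del were higher. In the Cyp6 family they were Cyp6w1 (2.79), Cyp6a2 (2.09), Cyp6a17 (1.96), Cyp6a20 (1.89), Cyp6a23 (1.83), Cyp6a9 (1.32), Cyp6a8 (1.27), Cyp6a14 (1.27), Cyp6a22 (1.25) and Cyp6a16 (1.22). In the Cyp4 family they were Cyp4e3 (1.87), Cyp4p3 (1.65), Cyp4aa1 (1.54), Cyp4ae1 (1.45), Cyp4p2 (1.35), Cyp4d8 (1.34), Cyp4c3 (1.27) and Cyp4s3 (1.04). The rest were Cyp313a3 (2.28), Cyp12a5 (1.58), Cyp316a1 (1.5), Cyp313a5 (1.33), Cyp12d1-p (1.22), Cyp313a2 (1.22) and Cyp9b1 (1.13). Cyp4ae1, at 0.511 CPM in 95Cc.del and 0.199 in the others, rests on few counts.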

How the results depend on the processing

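Numbers of P450 genes called against WT moved by over 1.5 times in some settings, and the causes were not tested. Calls over all genes moved too, in 21D.del from 111 lower and 15 higher to 286 and 85 with DESeq2. In 21D.del the 4 calls became 9 with DESeq2 and 13 in one fit of all 6 groups. The one fit gave 341 lower and 101 higher over all genes. In 82Eb.del the 25 calls became 12 with library totals, and over all genes 472 lower and 91 higher became 342 and 54. In 95Ca.del the 13 calls became 20 with DESeq2 and 21 in one fit. Over all genes there, 313 lower and 30 higher became 484 and 84, and 475 and 64. In 95Cc.del the 17 calls became 10 with library totals, and over all genes 340 lower and 258 higher became 306 and 164. Against the other strains, the 3 calls of 95Ca.del became 1 with library totals and the 8 of 95Cb.del became 16 with no fold threshold. Over all genes, these went from 40 lower and 23 higher to 18 and 17, and from 234 and 134 to 416 and 369. The 2 genes called in all 5 strains became 6 with DESeq2, 1 with library totals and 6 in one fit. With libraries left out, the calls ranged from 0 to 15 in 21D.del (7 without its replicate 2), 9 to 28 in 82Eb.del, 4 to 14 in 95Ca.del, 14 to 24 in 95Cb.del and 5 to 18 in 95Cc.del, and those shared by all strains from 0 to 5. Against the other strains the ranges were 2 to 6, 1 to 8, 0 to 2, 2 to 9 and 17 to 27. With the replicate block, 14 were called in 21D.del and 1 in all 5 strains. In the 95C strains, whose samples share only a number (correlations of -0.63 to 0.54), the block gave 3 calls in 95Ca.del, 16 in 95Cb.del and 6 in 95Cc.del. Over all genes the block gave 93 lower and 2 higher in 95Ca.del, 338 and 55 in 95Cb.del, and 175 and 70 in 95Cc.del. Over the 184 named pairs of gene and strain, 2233 of 2576 values under these settings kept their side of the threshold, 269 fell short of it and 74 passed it. Of these values, 0 were called in the opposite direction, which says nothing of the sign of changes that were not called.

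With 3 libraries a group, 1 of which stood apart, calls close to the threshold depend on single libraries. Members under about 1 CPM rest on few counts.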
